A study of Mus musculus with 12 samples.

Results

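The respiratory chain subunits encoded in the nucleus were examined in mouse MSCs that had been cultured with or without HSCs. Members were taken by gene symbol in the array's platform annotation, as the Nduf subunits of complex I, Sdha to Sdhd of complex II, the Uqcr genes and Cyc1 of complex III, the Cox4 to Cox8 subunits of complex IV without Cox6a2, and the Atp5 subunits of complex V. They came to 81 of the 18193 genes that a single-symbol probe set measured, with 163 of the 45037 probe sets. Complex I held 35 of the genes, complex II 4, complex III 9, complex IV 16 and complex V 17. Genes were assigned to complexes by symbol alone. Ndufa4, a subunit of cytochrome oxidase, and its relative Ndufa4l2 are therefore counted in complex I throughout.

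Total RNA of 12 cultures was hybridized to Affymetrix mouse arrays, 6 of MSCs with HSCs (co-culture) and 6 of MSCs alone (MSC-only). Each culture was seeded with 3000 bone marrow MSCs that carried PDGFR-α and Sca-1, and the co-cultures received 7000 HSCs as well (lineage-negative cells with Sca-1 and c-Kit). All were harvested on day 6 in medium with serum, and all cells are labelled as those of male C57BL6/J mice aged 6 weeks with no genetic change named. Whether the co-cultures were direct or indirect, whether MSCs were separated from HSCs again before RNA extraction and whether the 6 cultures of a group came from separate mice is not given, so that p-values measure the spread between these cultures only.

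The respiratory chain lies in the inner mitochondrial membrane. Complexes I and II pass electrons from NADH and succinate to coenzyme Q, complex III passes them on to cytochrome c and complex IV to oxygen, while complexes I, III and IV pump protons whose return through complex V, the ATP synthase, makes ATP. Some subunits are made from the mitochondrial genome, but most are made from nuclear genes, and cells must keep both sets in balance. Quiescent stem cells of the marrow are known to rely little on this chain, and its use rises as they proliferate or differentiate.

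The promoters of these genes are known for binding sites of NRF1 and of the ETS factor GABP, which regulate mitochondrial biogenesis, and of YY1. Of the 81 members, 66 had a RefSeq promoter window (mouse build GRCm38.p6, 250 bases before to 50 after the start). Letters were searched on both strands. GCGCATGC, the core of the NRF1 site, was in the windows of 9 members (13.6%) and in those of 3.93% of 17491 coding genes. CCGGAAG, the ETS core, was in 17 members (25.8%) and in 12.9% of all genes, and AAGATGGC, a YY1 site, in 9 members (13.6%) and in 3.57% of all genes. GGGCGGG, the GC box of SP factors, was in 24 members (36.4%), beside 36.9% of all genes. YY1 letters were found in 6 of 31 complex I genes and 3 of 15 complex V genes, and in 0 genes of complexes II, III and IV (3, 5 and 12 genes). The 100 bases before the start are printed here for a subunit of each complex and for Atp5j, whose window holds both ETS and YY1 letters. Capitals mark the letters searched, on either strand.
Ndufa6, complex I, NRF1 letters, chr15:82354292-82354391, minus strand: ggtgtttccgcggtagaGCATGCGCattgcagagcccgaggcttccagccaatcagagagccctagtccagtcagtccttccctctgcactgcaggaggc
Sdhb, complex II, NRF1 letters, chr4:140961171-140961270, plus strand: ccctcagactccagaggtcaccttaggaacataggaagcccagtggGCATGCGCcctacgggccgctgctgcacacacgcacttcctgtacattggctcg
Uqcr11, complex III, ETS letters, chr10:80406822-80406921, minus strand: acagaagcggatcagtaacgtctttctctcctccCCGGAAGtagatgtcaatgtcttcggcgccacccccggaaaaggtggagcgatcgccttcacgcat
Cox6a1, complex IV, ETS letters and a GC box, chr5:115348959-115349058, minus strand: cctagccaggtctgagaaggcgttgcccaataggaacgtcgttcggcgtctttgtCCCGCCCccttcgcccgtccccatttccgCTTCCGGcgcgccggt
Atp5g2, complex V, the NRF1 letters on both strands, overlapping, chr15:102671048-102671147, minus strand: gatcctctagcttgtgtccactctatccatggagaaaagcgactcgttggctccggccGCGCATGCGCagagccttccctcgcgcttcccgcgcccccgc
Atp5j, complex V, YY1 and ETS letters, chr16:84834977-84835076, minus strand: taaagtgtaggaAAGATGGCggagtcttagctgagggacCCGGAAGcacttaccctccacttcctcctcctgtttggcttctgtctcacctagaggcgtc
A match describes the letters in the window and not whether a factor was bound there.

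Several arrays went against the labels, and this touches every result below. Xist, which is transcribed from the inactive X chromosome of female cells, measured 13136 to 17840 in all 6 co-cultures and 16810 and 21978 in MSC-only 3 and 4, but 60.5 to 117.6 in MSC-only 1, 2, 5 and 6. The Y-linked gene Eif2s3y measured 1022 to 1331 in co-cultures 1, 2, 5 and 6, 2604 to 2845 in MSC-only 1, 2, 5 and 6, and 0.5 to 13.6 in the arrays numbered 3 and 4 of both groups. The main counts and medians, and the differences of the genes described at length, are also given without numbers 3 and 4. Leaving these out does not remove the mismatch. In numbers 1, 2, 5 and 6, Xist was bright in every co-culture and in no MSC-only array. Group and sex-linked signals therefore cannot be told apart there. Only in numbers 3 and 4 did both groups have bright Xist and almost no Eif2s3y signal. The arrays also fell into 6 and 6 along the first principal component of all probe sets that were no members, which held 21.6% of the variance. On one side (side A) lay MSC-only 1, 3 and 5 with co-cultures 2, 3 and 5, and on the other (side B) MSC-only 2, 4 and 6 with co-cultures 1, 4 and 6, so that each side holds 3 arrays of each group. The labels name no batch that matches it.

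The cell types in the RNA were checked by their markers. The summed signal of 11 leukocyte and macrophage genes, with Ptprc, Csf1r, Tyrobp and Lyz2 among them, was 221677 to 296776 in the co-cultures and 215257 to 291563 in the MSC-only group, where no HSCs had been seeded. That of 11 MSC and stromal genes, with Pdgfra and Col1a2 among them, was 15322 to 40134 and 17340 to 40780. Leukocyte transcripts were thus bright in all 12 cultures, Ptprc at 10425 to 13144 in the MSC-only group, while 5 genes of blood stem and progenitor cells summed to 225.3 to 423.1 in co-culture and 218.1 to 414.9 in the MSC-only group. Of these, Kit and Cd34 lay at or under 79.9 in all arrays and Gata2 between 89.9 and 310.9. The sums of both marker lists overlapped between the groups, and their part in the results below was not tested. In such bulk RNA, fewer cells of a type and less RNA per cell cannot be told apart.

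Most members gave a strong signal in these cultures. The deposited signal is a linear array intensity whose size depends on the probes as well as on the transcript. Signals of different genes are therefore given side by side to describe the arrays, and they do not rank the transcripts. Of the 81 genes, 73 had a mean signal of at least 200, namely 33 of complex I, all of complexes II, III and V (4, 9 and 17) and 10 of complex IV. The mean signals of complex III genes ran from 3506 for Uqcrc1 to 23905 for Uqcrb, and those of complex V from 2734 for Atp5g1 to 17273 for Atp5g3. In complex I they ran from 38.1 for Ndufb4 to 15284 for Ndufa1.

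**Figure D1:**
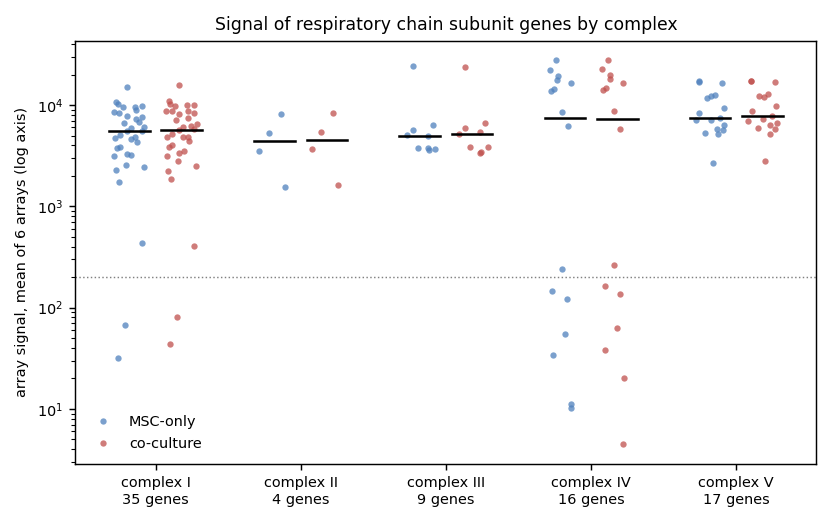
Mean array signal of each member gene over 6 arrays (log axis), by complex, in the MSC-only (blue) and co-culture (red) groups, with black lines at the median of each complex and a dotted line at a signal of 200. The 8 genes under the line belong to complexes I and IV, and both groups cover the same range in every complex.

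The members of low signal were mainly isoforms at home in other tissues. Cox4i2, the oxygen-regulated isoform of Cox4i1, measured 37.8 ± 19.0 (SD, n = 6) in co-culture and 34.3 ± 16.7 in the MSC-only group. Cox8b, the heart and muscle isoform of Cox8a, measured 4.47 ± 2.24 and 10.1 ± 6.68, and Cox7a1, another muscle isoform, 135 ± 33.2 and 122.0 ± 29.3. The testis isoforms Cox6b2 and Cox7b2 measured 63.1 ± 19.1 and 55.2 ± 15.2, and 20.1 ± 12.9 and 11.2 ± 7.46. The 5 striated muscle genes checked as markers had a summed signal of 113.1 to 256.9 over the arrays. Ndufa4l2, a hypoxia-induced relative of the cytochrome oxidase subunit Ndufa4, ranged from 15.4 to 131.3 in the MSC-only group and from 4.8 to 135.9 in co-culture. The remaining members of low signal were Ndufb4 and Cox7c, which are subunits of most tissues, and the probe sets that represent them here measured 38.1 and 153.8 on average.

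The isoforms of wide distribution gave strong signals in all arrays. Cox4i1, which carries a regulatory site of cytochrome oxidase, ranged from 17277 to 22131 in the MSC-only group and from 17550 to 22828 in co-culture. Cox6a1, Cox6b1, Cox7a2 and Cox8a had mean signals of 27840, 18077, 14780 and 8669 in co-culture and of 27698, 17706, 14457 and 8540 in the MSC-only group. Atp5g1, Atp5g2 and Atp5g3 encode the same mature c subunit of the ATP synthase rotor. Their means were 2773 ± 227, 5787 ± 629 and 17254 ± 1647 in co-culture and 2696 ± 161, 5673 ± 624 and 17291 ± 1817 in the MSC-only group (SD, n = 6). For each of the 3 genes the groups overlapped, and the difference was smaller than its SE.

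The comparison of the co-culture with the MSC-only group asked whether culture with HSCs changed the transcripts of the chain. None of the 163 member probe sets passed limma at an adjusted p under 0.05, with 0.989 as the smallest adjusted p among them, while 2 of all 45037 probe sets passed (0.00444%). At an unadjusted p under 0.05, 1 member probe set was higher and 0 were lower (0.613% and 0%), beside 2.81% higher and 1.55% lower of all probe sets. This order turned with the unpaired test that the methods name, by which 8 member probe sets were higher and 2 lower (4.91% and 1.23%, together 6.13%), beside 2.51% and 1.64% (together 4.15%) of all probe sets, so that no order is read from these shares. The log2 differences of the 73 brighter genes were within 0.1 in 61 and reached -0.16 at most, with an SE between 0.073 and 0.179.

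**Figure D2:**
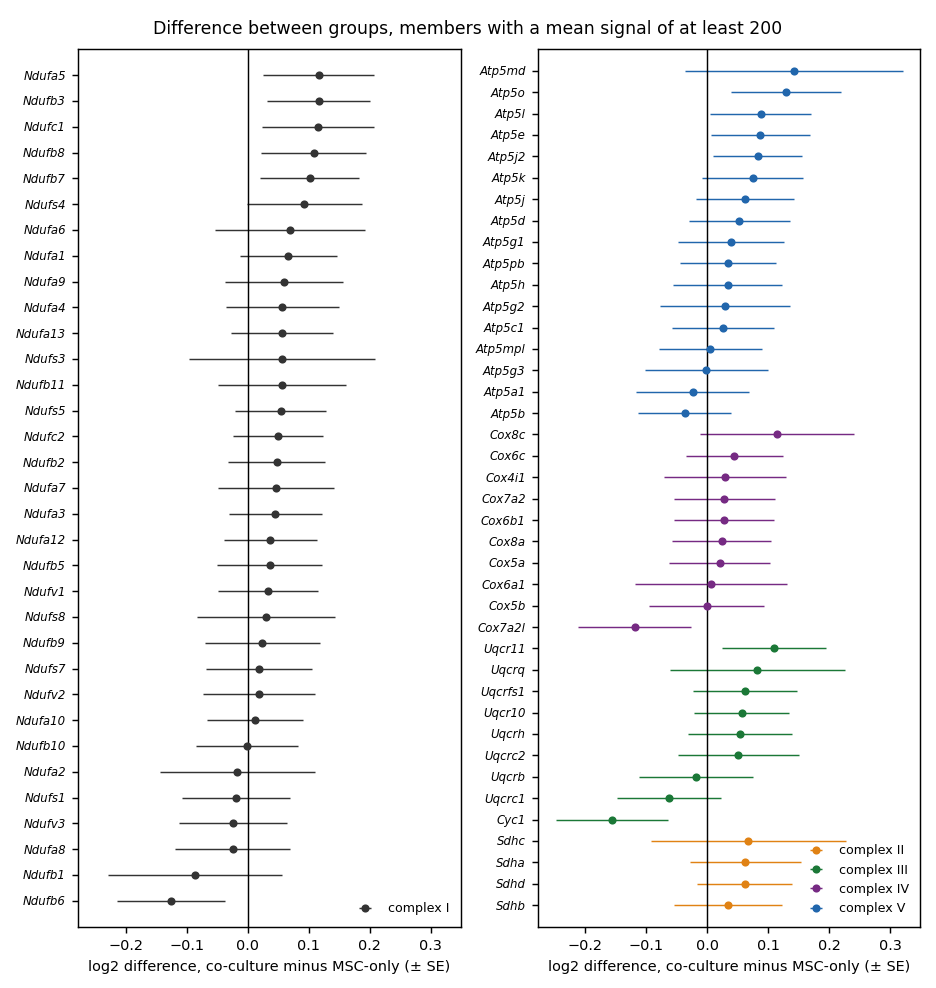
Log2 difference between the groups, co-culture minus MSC-only, for the 73 member genes with a mean signal of at least 200, with the SE from limma as bars, ordered by size within each complex. Most points lie between 0 and 0.1, Cyc1 lies lowest at -0.16 and Atp5md highest at 0.14, and no gene passed the test.

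Differences were small and mostly on one side of zero. Of the 81 genes, 65 had means on the co-culture side (80.2%), with a median log2 difference of 0.047. Of all 18193 genes 53.3% had a higher mean (median 0.011), and of the 8759 genes with a signal of at least 200 it was 48.7%. By complex the counts were 28 of 35 in complex I (median 0.047), 4 of 4 in complex II (0.061), 6 of 9 in complex III (0.053), 13 of 16 in complex IV (0.028) and 14 of 17 in complex V (0.038). Within complex I they were 5 of 6 for the core subunits of the peripheral arm and 23 of 29 for the accessory subunits.

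This direction depended on the arrays and on which scaling was used. With each array centred on its own median, which moved the median of all genes to -0.03, 43 of the 81 genes had a higher mean, with a median of 0.007. The count was 62 after quantile normalization and 68 with centring on the 75th percentile, close to the 65 of the main setting. Median centring put the medians of complexes IV and V at -0.01 and -0.0017. Without the arrays numbered 3 and 4 the count was again 65 of 81 (median 0.070), with medians of 0.059, 0.091, 0.039, 0.061 and 0.092 in complexes I to V. In the arrays left in, numbers 1, 2, 5 and 6, Xist was bright in the co-cultures only. In the 4 arrays numbered 3 and 4 alone, where Xist was bright in both groups, the count was 33 of 81 (median -0.03). Without co-culture 5 the count was 54, and the medians of complexes I, III and IV were 0.022, 0.035 and 0.010. That of complex II was 0.038 without co-culture 1, that of complex IV 0.051 without co-culture 4, and that of complex V 0.067 without co-culture 3. Members are not independent of each other, since they share the arrays, and no test was made of the count.

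In complex I the largest differences among the genes above a signal of 200 were -0.13 for Ndufb6 and 0.12 for Ndufa5 and Ndufb3. Ndufb6, an accessory subunit of the membrane arm, had signals of 6197, 6663 and 7737 (lowest, median and highest) in the MSC-only group and of 5656, 6231 and 6672 in co-culture, with an SE of the log2 difference of 0.089. Ndufb3, a second subunit of that arm, had 2941, 3264 and 3419 in the MSC-only group and 3091, 3509 and 3856 in co-culture. For Ndufb3 5 of the 6 co-cultures lay above every MSC-only array, and the sixth lay within their range. Without numbers 3 and 4 the differences were -0.07 for Ndufb6 and 0.20 for Ndufb3. Of the 2 probe sets of Ndufb6, 1 was lower and 1 higher in co-culture, and their correlation over the arrays was -0.32. The core subunits stayed closer together. Ndufs1, the largest iron-sulfur subunit, differed by -0.02, Ndufv1, which binds NADH, by 0.03, and Ndufs7 and Ndufs8, which carry the last iron-sulfur clusters before coenzyme Q, by 0.02 and 0.03, all within 1 SE of zero. Ndufb4 had the largest difference of the complex, 0.37 (SE 0.23), at a signal of 44.1 ± 13.0 against 32.1 ± 17.3, where the groups overlapped (two-sided exact permutation p = 0.154).

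Ndufa1 is X-linked. Its signals were 16852, 16390, 16620 and 15431 in co-cultures 1, 2, 5 and 6, and 14126 and 14503 in co-cultures 3 and 4. The MSC-only arrays lay between 14608 and 15431, so that the co-cultures spread to both sides of them, and the difference was 0.07 (SE 0.079). Eif2s3y was at or near 0 in numbers 3 and 4 of both groups, and Ndufa1 measured 15238 and 14778 in MSC-only 3 and 4. The median log2 deviation of all members from their group mean was -0.06 and -0.07 in co-cultures 3 and 4. In co-culture 6 it was -0.075, where Ndufa1 deviated by -0.017. Ndufb11, also X-linked, deviated by -0.018 and -0.14 in co-cultures 3 and 4 and by 0.033 and -0.16 in MSC-only 3 and 4. The part of the sex-linked signals in these values was not tested.

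All 4 genes of complex II, succinate dehydrogenase, had a slightly higher mean in co-culture. Sdha, the flavoprotein that oxidizes succinate, differed by 0.06, Sdhb, the iron-sulfur subunit, by 0.03, and the membrane anchors Sdhc and Sdhd by 0.07 and 0.06. Sdhd had signals of 3232, 3541 and 3735 in the MSC-only group and of 3516, 3643 and 3808 in co-culture (two-sided exact permutation p = 0.177). Its highest 3 co-cultures lay above every MSC-only array. With the mean of its probe sets in place of the brightest the difference of Sdhd was 0.14, and that of its brightest probe set without numbers 3 and 4 was 0.11. Sdhc had the widest spread of the complex, from 1156 to 1862 in the MSC-only group and from 1269 to 2091 in co-culture. That is several times the difference between the means of 1622 ± 355 in co-culture and 1537 ± 258 in the MSC-only group (SD, n = 6).

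Complex III held both the lowest difference of the bright members and a probe set without overlap. Cyc1, the heme protein that hands electrons to cytochrome c, measured 3489, 3704 and 4021 in the MSC-only group and 2831, 3498 and 3698 in co-culture, which is -0.16 on the log2 scale (SE 0.092). Of the 6 co-cultures 3 lay below every MSC-only array, and the exact permutation test over the 924 arrangements of the arrays gave a two-sided p = 0.0433. Cyc1 was tested for having the smallest limma p of its complex, so this p is not independent of that choice. The same holds for the exact p-values of Ndufb4, Sdhd, Cox8b and Atp5o. Without numbers 3 and 4 the difference of Cyc1 was -0.21. The Rieske protein Uqcrfs1 differed by 0.06, and the core proteins Uqcrc1 and Uqcrc2 by -0.06 and 0.05. Uqcr11, a small subunit, had 4 of 6 co-cultures above every MSC-only array, at 5374 ± 424 against 4978 ± 304, a difference of 0.11 (SE 0.085), or 0.13 without numbers 3 and 4.

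The groups did not overlap in 2 of the 163 member probe sets (1.23%), beside 0.198% of all probe sets. The dimmer of the probe sets of Uqcrb, the subunit next to the coenzyme Q site of complex III, measured 5181, 5476 and 5816 in the MSC-only group and 5842, 5980 and 6369 in co-culture. The lowest co-culture thus lay just above the highest MSC-only array. The log2 difference was 0.14 (0.19 without numbers 3 and 4), and it did not pass limma. The brighter probe set of Uqcrb differed by -0.02 with full overlap, from 20376 to 26634 and from 21524 to 26372, and the correlation of both probe sets over the 12 arrays was 0.17. A probe set of Atp5a1, the α subunit of the ATP synthase head, had 6494, 6753 and 7120 in the MSC-only group and 5857, 6357 and 6451 in co-culture, a difference of -0.12 (-0.13 without numbers 3 and 4) that did not pass limma either. Since these probe sets were singled out for their lack of overlap, no exact test is given for them. The brighter probe set of Atp5a1 differed by -0.02 and overlapped, although it followed the former over the arrays with a correlation of 0.85.

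The single member probe set with an unadjusted p under 0.05 belonged to Uqcrq, a small subunit of complex III. This probe set measured 76.2 ± 17.4 in co-culture and 47.5 ± 16.5 in the MSC-only group (SD, n = 6). The log2 difference was 0.55, with a limma p of 0.00672 before and 0.989 after adjustment, and 2 of the 6 co-cultures lay above every MSC-only array. The brightest probe set of the gene, at 5931 ± 859 and 5643 ± 1106, differed by 0.08, and the other probe sets of Uqcrq by -0.12 and -0.17. Among the 47 members with several probe sets, 20 had probe sets of both signs.

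In complex IV the catalytic core is made in mitochondria, and the nuclear subunits surround it. Cox5a and Cox5b, the subunits that bind next to that core, differed by 0.02 and 0.00 at signals of 22423 ± 1623 and 16457 ± 1308 in co-culture and of 22098 ± 1250 and 16487 ± 1575 in the MSC-only group (SD, n = 6). Of the 3 probe sets of Cox5a, 2 were higher and 1 lower in co-culture. Of the 6 of Cox5b, 1 was higher and 5 were lower, with 0.0572 as the smallest unadjusted limma p among them. Cox7a2l, which joins complexes III and IV into supercomplexes, measured 5637, 6246 and 6889 in the MSC-only group and 5258, 5688 and 6508 in co-culture, a difference of -0.12 (SE 0.093), or -0.23 without numbers 3 and 4. For this gene 3 co-cultures lay below every MSC-only array, while its other probe sets differed by 0.00 and -0.06. Cox8b, at its low signal, differed by -0.32 (two-sided exact permutation p = 0.0671), a value that ran from -0.11 to -0.87 with the constant added before the logarithm. Cox8c, another testis isoform, differed by 0.11 with a second probe set at -0.37.

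In complex V, Atp5o, which links the head of the ATP synthase to its peripheral stalk, measured 5353, 5887 and 6395 in the MSC-only group and 5540, 6406 and 7376 in co-culture, and so differed by 0.13 (SE 0.090, two-sided exact permutation p = 0.0823). The dimmer probe set of Atp5o differed by 0.15, and without numbers 3 and 4 the former difference of Atp5o was 0.21. The catalytic β subunit Atp5b and the α subunit Atp5a1 differed by -0.04 and -0.02, and the rotor shaft Atp5c1 by 0.03. Atp5j2, of the membrane part, had 4 of 6 co-cultures above every MSC-only array, at 12310 ± 584 against 11619 ± 276, with a difference of 0.08, or 0.13 without numbers 3 and 4. Atp5md, a small subunit of ATP synthase dimers, had the widest spread of the complex. It ran from 3500 to 6328 in the MSC-only group and from 3858 to 7473 in co-culture, and its lowest values were those of MSC-only 5 and co-culture 3.

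**Figure D3:**
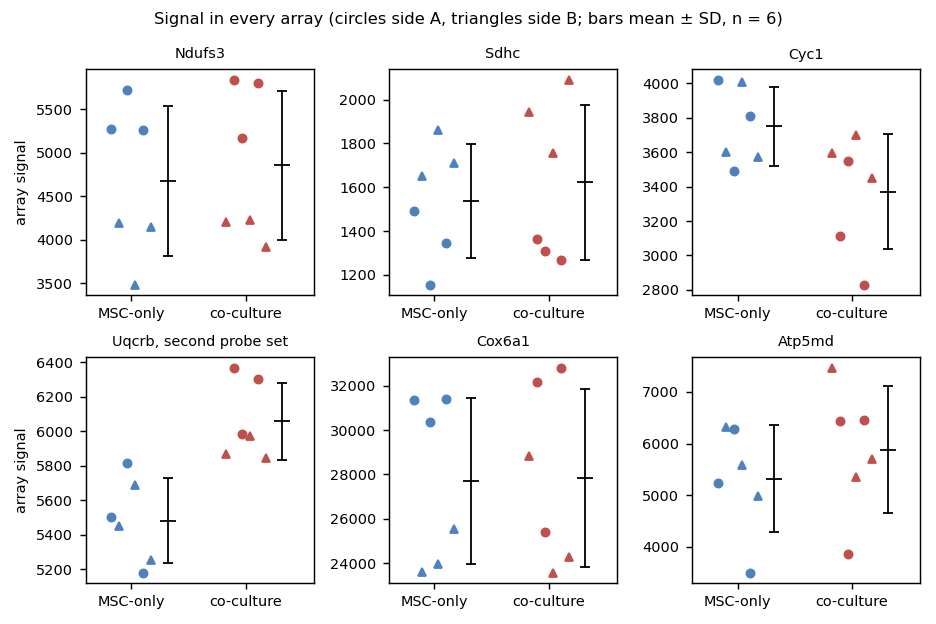
Array signal in every culture for Ndufs3, Sdhc, Cyc1, the dimmer probe set of Uqcrb, Cox6a1 and Atp5md, in the MSC-only (blue) and co-culture (red) groups, with circles for side A and triangles for side B of the first principal component, and bars for mean ± SD (n = 6). Ndufs3 is at 5166 or above in all circles and at 4225 or below in all triangles, in both groups, while the groups overlap for each gene except in the Uqcrb probe set.

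Some members differed more between arrays of one group than between the group means. Ndufs3, a core subunit with the widest spread of complex I above a signal of 200, measured 5270, 5724 and 5257 in MSC-only 1, 3 and 5 and 5841, 5166 and 5799 in co-cultures 2, 3 and 5. In MSC-only 2, 4 and 6 it measured 4193, 3482 and 4144, and in co-cultures 1, 4 and 6 4199, 4225 and 3910. These are the arrays of the sides A and B described above. Sdhc ran the other way, at 1156 to 1493 in the 6 arrays of side A and 1653 to 2091 in those of side B. Cox6a1 was at 30362 to 32818 in 5 of the 6 arrays of side A and at 25404 in co-culture 3. Cyc1 and Atp5md had no such order. The narrowest spreads of complexes I to V, in that order, were those of Ndufc2, Sdhd, Uqcr10, Cox6c and Atp5j2, with an SD over all 12 arrays of 0.058 to 0.082 on the log2 scale.

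**Figure D4:**
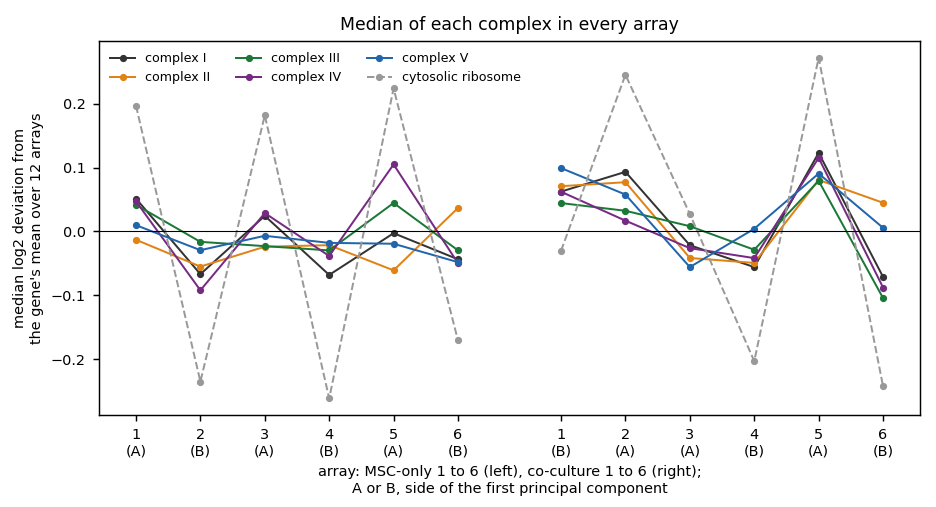
Median log2 deviation of the members of each complex (signal of at least 200) and of 48 cytosolic ribosome genes from each gene's mean over the 12 arrays, for MSC-only 1 to 6 on the left and co-culture 1 to 6 on the right, with the side of the first principal component in brackets. Complex medians reach 0.123 and ribosome medians 0.272, both in co-culture 5.

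The members moved together from array to array to a modest degree. With the group means removed, the median Pearson correlation over the 12 arrays was 0.25 across the 2628 pairs of the 73 brighter members. It was -0.00094 between members and 8084 other genes of the same range of signal. These genes shared the range only and were not matched in signal. The brighter members had a median signal of 6477, and all 8759 genes of at least 200 had one of 980. Among pairs of members, the correlation was above 0 in 65.9%, above 0.5 in 33.98% and below -0.5 in 9.36%. Within complexes the medians were 0.36 in complex I, -0.32 in complex II, 0.10 in complex III, 0.24 in complex IV and 0.28 in complex V. With members of the other complexes they were 0.24, 0.20, 0.15, 0.25 and 0.23 in that order, so that the median was higher within than outside for complexes I and V only. Pooled over complexes, the 751 pairs within a complex, 528 of them from complex I, had a median of 0.31 and the remaining pairs 0.22. By contrast, the 48 cytosolic ribosome genes had a median of 0.90 among themselves, while the 75 mitochondrial ribosome genes had 0.18, the 42 assembly factors 0.062 and 17 genes of the citric acid cycle 0.011. These pairs share 12 arrays, their scaling and their mix of cells, and they are given as a description.

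Within the 6 arrays of side A the median correlation of the brighter members was 0.40, and within those of side B 0.39, against -0.0015 and 0.032 with other genes. After quantile normalization of the arrays it fell to 0.089 over the 12 arrays. The median deviation of the members in an array is given beside the width of the signal distribution on that array. In the co-cultures it was 0.073, 0.044 and 0.053 in co-cultures 5, 2 and 1, where the SD of the signal over all probe sets was 3114, 3094 and 2779, and it was -0.056, -0.066 and -0.075 in co-cultures 3, 4 and 6, where that SD was 2647, 2473 and 2487. In MSC-only 1, 3 and 5 it was 0.050, 0.038 and 0.019, with an SD of 2949, 2898 and 3024, and in MSC-only 2, 4 and 6 it was -0.049, -0.02 and -0.038, with an SD of 2489, 2447 and 2588. All 6 arrays with a median deviation above 0 had an SD of 2779 or more and the others one of 2647 or less, while the order within these sets differed. The part of the scaling in the co-variation was not tested further.

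**Figure D5:**
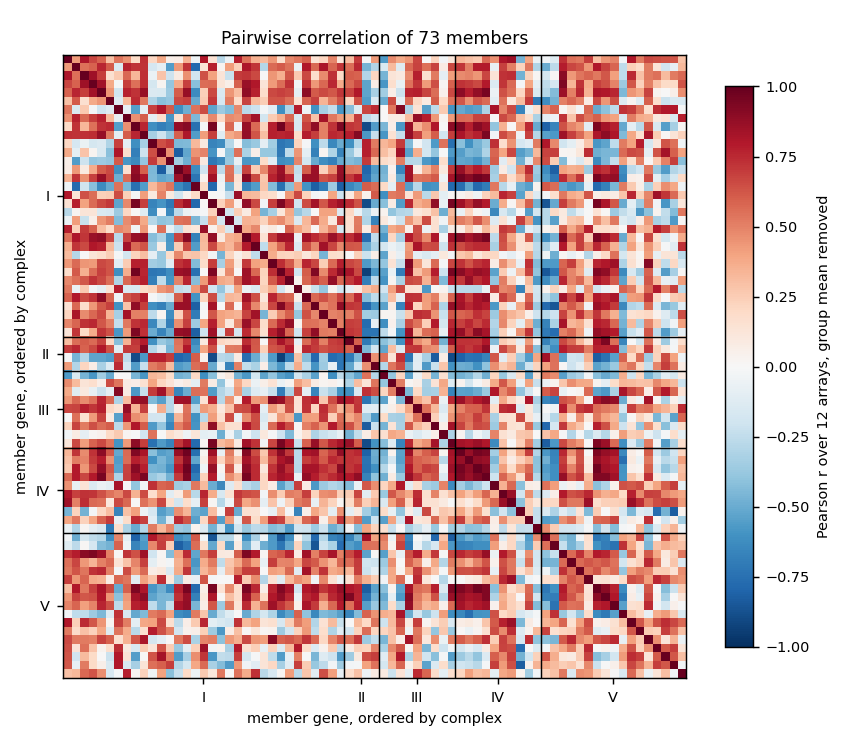
Pearson correlation over the 12 arrays, group mean removed, for each pair of the 73 members with a signal of at least 200, ordered by complex and then by symbol, from blue (-1) over white (0) to red (1). A block of high correlations joins the first members of complex IV with many of complex I and with Atp5g2 and Atp5g3 of complex V, and single blue bands mark members such as Sdhc, Ndufb2 and Atp5b.

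Genes of different complexes were among the closest pairs. Ndufb11, a subunit of the membrane arm of complex I, correlated with Cox4i1 at 0.98 and with Cox5b at 0.97, and Ndufa6 with Ndufs3 at 0.96. The lowest pairs were Sdhc with Ndufs3 at -0.93 and with Ndufa6 at -0.89. Among members, Ndufb9 (0.66), Cox6a1 (0.63), Ndufa7 (0.60) and Cox5b (0.60) had the highest median correlation with the other members, and Ndufb2 (-0.43), Cyc1 (-0.33) and Sdhc (-0.31) the lowest. Ndufb11, Ndufa6, Ndufa7, Ndufb9 and Ndufb2 were named here after their values had been seen. Of the members whose promoters are printed above, Sdhb had 0.59, Atp5g2 0.57, Ndufa6 0.46, Uqcr11 -0.08 and Atp5j -0.18. The genes outside the chain most like it by this measure, out of 8084 compared, were Micos10, a component of the mitochondrial cristae junction (0.66), Frg1 (0.65), Dnttip1 (0.65), Smarcal1 (0.64) and the cholesterol carrier Npc2 (0.63).

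Many of the correlated members also followed the cytosolic ribosome. The correlation of a member with the median of 48 cytosolic ribosome genes was above 0.5 for 41 of the 73 (56.2%) and above 0.8 for 21 (28.8%), beside 24.4% and 7.62% of 8049 other genes of the same range of signal. These other genes, too, were not matched to the members in signal. The correlation with the ribosome median was 0.98 for Atp5g2, 0.97 for Cox4i1 and Cox5b and 0.96 for Cox6a1. It was below -0.5 for 11 members (15.1%), beside 26.3% of the other genes, with Sdhc at -0.82, Ndufb2 at -0.78 and Atp5b at -0.68. Part of this did not hold within the sides. Of the 21 members above 0.8, 12 were above 0.5 both within side A and within side B, such as Cox6a1 (0.997 and 0.964) and Atp5g2 (0.91 and 0.85), while Cox5a had 0.92 and -0.011 and Ndufs8 0.79 and -0.029. Of the 11 below -0.5, 0 were below -0.5 within both sides and 5 were above 0 within both, such as Uqcr11 (0.67 and 0.91) and Ndufa4 (0.74 and 0.92), and Sdhc had 0.055 and -0.099.

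Probe sets of the same gene bound how closely such patterns can be read. For the 40 members with 2 or more probe sets at a signal of at least 200, the median correlation between probe sets of a gene was 0.70 over 92 pairs. It was above 0.5 in 64 pairs and below 0 in 9. The probe sets of Sdhc correlated at 0.71 and those of Cox6a1 at 0.53, whereas those of Sdhd and Atp5o had -0.38 and -0.33 and those of Atp5c1 the lowest value, -0.62.

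Genes around the chain were compared as lists, and no gene of them passed limma. Of 43 assembly factors, 22 had a higher mean (median 0.005). Foxred1, needed for complex I assembly, measured 302 ± 32.5 in co-culture and 398 ± 59.6 in the MSC-only group (SD, n = 6). Its difference was -0.37, with a limma p of 0.00905 before adjustment, and Cox17, the copper chaperone of complex IV, differed by 0.15. Of 16 genes of electron carriers and coenzyme Q synthesis 10 were on the higher side (median 0.033), with Coq4 at 0.37 and Coq8a at 0.37. Coq4, of coenzyme Q synthesis, had a limma p of 0.0163 before adjustment. Of 21 regulators of mitochondrial biogenesis it was 10 (median -0.02), with the mitochondrial RNA polymerase Polrmt at -0.20 and the nuclear receptor Esrra at 0.15. Of 17 genes of the citric acid cycle and pyruvate dehydrogenase it was 10 (median 0.012), with Ogdh at -0.18 and the pyruvate carrier Mpc1 at 0.07. Of 9 nucleotide and phosphate carriers and uncoupling proteins it was 7 (median 0.039), with Ucp3 at 0.19 and Vdac1 at 0.13. The mitochondrial ribosome had 47 of 76 (median 0.020), with Mrps18b at -0.16 and Mrpl20 at 0.20, and the cytosolic ribosome 36 of 50 (median 0.027), with Rps27 at -0.96 and Rpl14 at -0.20. Both were dim for that list, whose median signal was 20516.5. Rps27 measured 159 ± 15.8 in co-culture and 376 ± 213 in the MSC-only group (SD, n = 6), with a limma p of 0.0122 before adjustment. Rpl14 measured 265 ± 34.1 and 306 ± 19.4.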

How the data were processed

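The authors hybridized biotin-labelled RNA to Affymetrix mouse arrays, and the deposited table holds 1 intensity for each probe set, linear and at or above 0. The 2% trimmed mean lay between 496.6 and 497.3 on all arrays while quantiles differed, so a common mean had been set for the arrays and no common distribution. The authors analysed the arrays with Affymetrix's GeneChip Operating Software, and the sources used here give neither its summary algorithm nor its target value. Groups and numbers came from the labels.

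Signals were taken as log2(signal + 16), which understates changes of dim transcripts. Of 45037 probe sets, 34945 had 1 symbol, 932 several and 9160 none here, and only the first were named, with 9 probe sets that hold a member symbol among several left out. A gene was represented by its brightest single-symbol probe set. All 81 members matched RefSeq by gene ID. The limma package (3.58.1, under R 4.3.3) was used for the groups, with neither a block nor a filter, and p-values were adjusted by Benjamini-Hochberg over every probe set of the table (threshold 0.05). The code was tested on simulated data. Single values were compared by exact permutation over 924 arrangements, for the member with the smallest limma p of each complex.

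The members and the gene lists were chosen with earlier results of these data known. Members named in the text are the up to 2 with the smallest p in each direction per complex, catalytic and core subunits, tissue isoforms, those without overlap or with discordant probe sets, and the widest and narrowest spread per complex. Ndufb1 of complex I (mean signal 422) also met the first of these criteria, with a lower mean in co-culture, and is not described above. Of the other lists the 2 genes with the smallest p are named, and the 5 genes most like the members. Named outside this rule, once values had been seen, were Ndufa1, Ndufa5, Ndufa6, Ndufa7, Ndufb2, Ndufb9 and Ndufb11. Alternatives covered scaling, the constant added, a filter at a signal of 100, the mean of a gene's probe sets, the replicate number as a block, limma's trend and robust options, the methods' unpaired test, leaving out each array and, chosen after seeing the data, leaving out numbers 3 and 4 and the side of the first component. The number of arrays, not depth, sets the precision.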

Additional observations from a re-analysis of the deposited data

Results flagged for a closer look

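Of 96 groups of 6 arrays, taken over the 48 named members, 4 held an array far from the other 5, where chance gives about 1 in 20. For Cox4i2, co-culture 1 measured 3.8, below the 31.7 to 60.2 of the other co-cultures, and MSC-only 3 measured 67.7, above the 23.5 to 33.2 of the other MSC-only arrays. Cox4i2 is a dim member in both groups. For Cox6b1, co-culture 1 measured 20886, above the 16808 to 18109 of the other co-cultures. For Cox8a, MSC-only 4 measured 7404, below the 8587 to 8917 of the other MSC-only arrays.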

How the results depend on the processing

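No alternative called a member probe set, with adjusted p from 0.584 upward. The methods' unpaired test had 10 of 163 member probe sets (6.13%) at an unadjusted p under 0.05, beside 4.15% of all probe sets, and limma 1. Of 81 genes, 65 had the higher mean in co-culture. The count was 43 with median centring, 62 after quantile normalization, 68 with 75th percentile centring, 33 in numbers 3 and 4 alone, and 54 to 69 with single arrays left out. In numbers 3 and 4 alone the median difference was -0.0296 in complex I, -0.0388 in complex II and -0.0306 in complex V, and it was 0.0921 in complex V without them. With single arrays left out the medians ran from 0.0221 to 0.0593 in complex I, 0.0381 to 0.0697 in II, 0.0352 to 0.0634 in III, 0.0100 to 0.0511 in IV and 0.0306 to 0.0672 in V. The median correlation over all 81 members was 0.203. It was 0.0618 after quantile normalization, 0.311 with median centring, 0.276 with the side of the first component removed, 0.351 within side A, 0.320 within side B, 0.237 without numbers 3 and 4, and 0.174 to 0.232 with single arrays left out. The cause of these shifts was not tested. Of 1194 values of the 48 named genes under alternatives, 82 had another sign, in 25 genes, and 4 moved by more than 1 SD.

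The labels do not say that a replicate number marks a shared source. The correlation of same-numbered deviations was -0.16, -0.13, 0.12, 0.15, 0.10 and 0.15 for numbers 1 to 6 over all probe sets, and -0.50, -0.40, 0.21, 0.59, 0.32 and 0.47 over the members. Of the 12 arrays, 1 correlated best with its own number in the other group, so the numbers were not taken as pairs, although numbers 3 and 4 of both groups share a lack of Y-linked signal. With the replicate number as a block 0 member probe sets were called, 65 of 81 genes had a higher mean and the median correlation was 0.220. For members of dim signal the constant added before the logarithm sets the size of a difference.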
